A study of Mus musculus with 13 samples.

Results

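The alarmin genes examined here are Il33, Il18 and Tslp, together with the genes for their receptor chains (Il1rl1, Il18r1, Il18rap, Crlf2), the soluble inhibitor Il18bp and the processing enzyme Casp1. They were chosen by gene symbol in the platform annotation, and where a gene had several probe sets the one with the highest mean over the 13 arrays was its main one, which mattered for Il18rap alone. No response to the hormone or to time entered that rule, but the genes were picked with earlier results of these data known, so their tests are not independent evidence. Of the 9 genes listed, 8 had a main probe set, out of 18193 genes with one on the array; Il1rl1 was not analysed here. The signals are log2 values from mouse prostate progenitor/stem cells, cultured at passage 22 from 10 wk old wild-type B1/6; 127/SVEV mice. The groups were 1,25D 6 h (3 arrays), vehicle 6 h (3), 1,25D 48 h (4) and vehicle 48 h (3), where 1,25D is 100 nM 1,25(OH)2D3, the hormone form of vitamin D, and vehicle is 0.1% ethanol. In the 48 h groups the media were given every 24 h, per the labels' protocols. All groups had the same genotype, age and passage label, so other cultures are not represented.

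Alarmins are cytokines that barrier cells hold or make ready and let out on damage or stress, so that immune cells nearby are alerted. Interleukin-33 sits in the nucleus of epithelial and endothelial cells and acts on a receptor made of Il1rl1 (ST2) and the shared chain Il1rap. Interleukin-18 is stored as an inactive precursor, is cut by caspase-1 in an inflammasome, signals through Il18r1 and Il18rap and is bound by the decoy Il18bp. Thymic stromal lymphopoietin, the product of Tslp, signals through Crlf2 and Il7r, and in mouse skin Tslp is known to be raised by vitamin D analogues put on the surface.

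The array values are messenger RNA signals of whole cultures, in which fewer cells of a type and less RNA per cell cannot be told apart. Epithelial identity was checked with 7 marker genes: mean signals of Krt14 lay at the 99.9 percentile of all probe sets in every group, those of Krt5, Krt8, Krt18, Epcam and Cdh1 at the 98.1 to 99.8 percentile and those of the basal regulator Trp63 at the 79.8 to 90.0 percentile. Of 8 leukocyte markers, Itgam, Ptprc and Adgre1 had group means at the 9.8 to 29.7 percentile, Lyz2 at the 42.5 to 46.7 percentile, Cd3e, Cd4 and Csf1r at the 60.8 to 68.2 percentile and Cd68 at the 49.2 to 76.7 percentile. Probe sets differ in their background and detection calls were not used, so a percentile does not tell whether a gene was expressed. Cyp24a1, the hydroxylase that breaks down 1,25D and marks an active receptor, was higher with 1,25D at both times, by 8.50 (SE 0.20) and 7.83 (SE 0.18) on the log2 scale. Vehicle 6 h replicate 1 and 1,25D 48 h replicate 4 stand apart from the other arrays on a second principal component that held 23.0% of the variance. Nothing in the labels tells separate cultures from repeat arrays, so p-values measure only the spread between these arrays.

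The RefSeq sequences upstream of Il33 and Il18 are shown because these are the alarmin genes whose signals the comparisons below turn on and for which a promoter sequence could be given. Each run is the 250 bases before an annotated transcription start in GRCm38.p6, on the plus strand: chr19:29924863-29925112 and chr19:29945540-29945789 before the upstream and downstream starts of Il33, and chr9:50554450-50554699 before that of Il18. Capitals mark the TATA motif, TATAAA, searched on the strand of the gene.
Il33 upstream start: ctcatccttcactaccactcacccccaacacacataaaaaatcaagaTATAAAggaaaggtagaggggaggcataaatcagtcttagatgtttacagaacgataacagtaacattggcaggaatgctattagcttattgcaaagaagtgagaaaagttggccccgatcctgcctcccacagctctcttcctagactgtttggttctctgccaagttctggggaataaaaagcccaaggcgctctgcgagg
Il33 downstream start: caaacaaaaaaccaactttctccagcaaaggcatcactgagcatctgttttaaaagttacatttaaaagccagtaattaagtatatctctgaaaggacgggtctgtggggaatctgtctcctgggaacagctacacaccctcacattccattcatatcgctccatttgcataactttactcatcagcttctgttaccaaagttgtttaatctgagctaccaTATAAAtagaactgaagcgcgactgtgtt
Il18: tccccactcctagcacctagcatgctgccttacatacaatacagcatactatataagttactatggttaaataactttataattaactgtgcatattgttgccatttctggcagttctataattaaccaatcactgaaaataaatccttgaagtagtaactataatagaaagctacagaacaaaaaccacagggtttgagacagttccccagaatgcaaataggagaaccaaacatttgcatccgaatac

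The downstream Il33 start has TATAAA beginning at position -29 from the start, and the upstream one at position -203; the Il18 window has none. This motif is in 7.59% of the 32851 promoter windows of the same length. The direct repeat bound by the vitamin D receptor with its partner (DR3) was searched on both strands. It had no match in the windows of the 8 members with a promoter sequence, against 0.0396% of all windows. These 8 include Il1rl1 and not Tslp, so they are not the 8 measured members. Single half-sites AGGTCA and AGTTCA, which form part of that repeat, and the AP-1 motif TGANTCA and the NF-kB motif were also searched on both strands. None of these had a match before Il33 or Il18, and their shares over all windows were 14%, 11.8%, 6.75% and 3.9%. Among the other members, AGGTCA matched before a start of Il1rl1 (position -185) and AGTTCA before Il18rap (position -169). No match says only that these letters are not in these windows. Which Il33 start was in use is not known from the array.

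The first question was which alarmin genes respond to 1,25D after 6 h. At 6 h Il33 was the only member called among the 8 measured (limma, adjusted p under 0.05 over all 45037 probe sets), against 0.852% of all genes in either direction (0.687% higher and 0.165% lower). Il33 read 6.12, 6.56 and 6.60 in 1,25D 6 h cultures, against 5.38, 5.43 and 5.36 in vehicle 6 h cultures. All treated arrays were higher than all vehicle arrays, and the lowest treated value was that of replicate 1. Groups that do not overlap, in either direction, were seen in 10.2% of all genes at 6 h. The means were 6.43 ± 0.264 with 1,25D and 5.39 ± 0.0375 with vehicle (SD, n = 3 each), a 2.05-fold rise (log2 change 1.03, SE 0.14, limma adjusted p = 0.00174). The vehicle signal lay at the 46.1 percentile of the array, and if part of that signal is background, the fold is understated. Without the arrays that stand apart the change was also 1.03 (adjusted p = 0.00462). In a fit of the 2 groups alone its size was the same and the call was lost (adjusted p = 0.0705).

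Il18 and Tslp showed no such difference at 6 h. Il18 read 6.20, 6.45 and 6.34 in 1,25D 6 h cultures, against 6.23, 6.14 and 6.65 in vehicle 6 h cultures. The groups overlapped, and the log2 change was -0.01 with a 95% interval of -0.34 to 0.32. Tslp read 4.90, 4.85 and 4.72 in 1,25D 6 h cultures, against 5.12, 4.90 and 4.61 in vehicle 6 h cultures. These also overlapped, with a log2 change of -0.06 (95% interval -0.38 to 0.26), with group means at the 33.9 and 34.7 percentiles of the array. Over the 8 members the median log2 change at 6 h was 0.01, beside -0.02 over all genes.

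**Figure D1:**
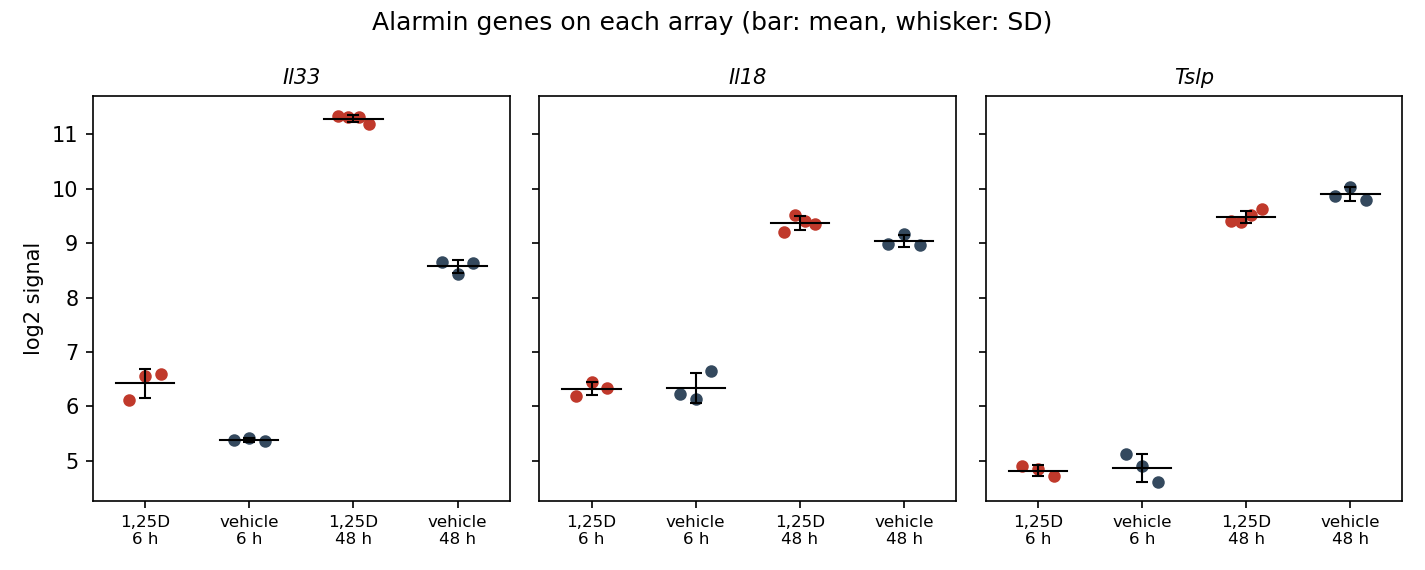
Log2 signal (vertical axis) of Il33, Il18 and Tslp on each of the 13 arrays, in the groups 1,25D 6 h, vehicle 6 h, 1,25D 48 h and vehicle 48 h; points are arrays, bars means and whiskers SD. Il33 with 1,25D lies above vehicle at each time, whereas Il18 and Tslp differ mainly between 6 h and 48 h.

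At 48 h Il33 was again the only member called of 8, against 2.39% of all genes in either direction (1.43% higher and 0.951% lower). It read 11.34, 11.32, 11.31 and 11.19 in 1,25D 48 h cultures, against 8.65, 8.44 and 8.64 in vehicle 48 h cultures. The treated arrays were close together and all of them were above the vehicle arrays. The means were 11.29 ± 0.066 (SD, n = 4) with 1,25D and 8.58 ± 0.115 (SD, n = 3) with vehicle, a 6.57-fold rise (log2 change 2.72, SE 0.13, limma adjusted p = 4.71e-08). By size of change Il33 ranked 18 from the top among 18193 genes at 48 h, and 87 at 6 h. Without the arrays that stand apart the log2 change at 48 h was 2.75 (adjusted p = 6.83e-08).

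On the scale of the deposited signals, the log2 change of Il33 was larger at 48 h than at 6 h. The difference of the responses was 1.68 on the log2 scale (SE 0.19, 95% interval 1.27 to 2.09, limma adjusted p = 0.00078 for the interaction term). Background within the dim 6 h signals would make this difference too large, and no background correction was tested. It was the only member of 8 with a called difference, against 0.632% of all genes. The corresponding differences of the other alarmins were 0.34 for Il18 (95% interval -0.12 to 0.79, adjusted p = 0.985) and -0.36 for Tslp (95% interval -0.80 to 0.08, adjusted p = 0.985).

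Il18 stood slightly higher and Tslp slightly lower with 1,25D at 48 h, and neither passed the test. Il18 read 9.20, 9.52, 9.41 and 9.35 in 1,25D 48 h cultures, against 8.98, 9.17 and 8.97 in vehicle 48 h cultures. Its lowest treated array was just above its highest vehicle array, and the log2 change was 0.33 (95% interval 0.02 to 0.64, unadjusted p = 0.0399, limma adjusted p = 0.648). Tslp read 9.40, 9.39, 9.52 and 9.63 in 1,25D 48 h cultures, against 9.87, 10.04 and 9.79 in vehicle 48 h cultures. Here every treated array was below every vehicle array, with a log2 change of -0.42 (95% interval -0.72 to -0.12, unadjusted p = 0.00998, limma adjusted p = 0.31). Groups that do not overlap were seen in 12.6% of all genes at 48 h. With array quality weights Tslp was called (log2 change -0.41, adjusted p = 0.0371), and without the arrays that stand apart it was -0.47 (adjusted p = 0.0902). Those weights called 1043 of all genes at 48 h, against 434 in the main fit. Tslp stayed uncalled at 48 h in 23 of 24 alternatives.

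The second question was how the same genes differ between the 48 h and the 6 h groups. The labels give no processing days, and in the 48 h groups the media were given every 24 h. Any effects of day, of these media and of time cannot be told apart. In vehicle alone 6 of 8 members were called, 5 higher and 1 lower, against 18.6% of all genes in either direction (9.84% higher and 8.75% lower). With 1,25D the same counts were 6, 5 and 1, against 23.4% of all genes (10.9% higher and 12.5% lower). Groups that do not overlap were seen in 31% of all genes in vehicle and 33.8% with 1,25D. These comparisons share no arrays with each other, and each of them shares its arrays with the hormone comparisons. The median log2 change over the members was 0.79 in vehicle and 0.75 with 1,25D, beside -0.03 and 0.01 over all genes.

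On the deposited scale, Tslp had the largest log2 rise of the 18193 genes between 48 h and 6 h in vehicle. Its 6 h signals are not known to be above background, and the size and rank of the rise depend on that floor. Its means were 9.90 ± 0.127 in vehicle 48 h and 4.88 ± 0.253 in vehicle 6 h cultures (SD, n = 3 each), a 32.6-fold rise (log2 change 5.02, SE 0.15, limma adjusted p = 3.04e-10). With 1,25D they were 9.49 ± 0.114 (SD, n = 4) at 48 h and 4.82 ± 0.0934 (SD, n = 3) at 6 h, a 25.4-fold rise (log2 change 4.66, SE 0.14, adjusted p = 1.23e-10), which ranked 10 from the top. In both, all 48 h arrays were above all 6 h arrays by a wide gap. In the order of group levels, 1,25D 6 h and vehicle 6 h were lowest and overlapped, followed by 1,25D 48 h and vehicle 48 h, whose difference was not called.

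Il33 also rose with time in both arms. In vehicle the means were 8.58 at 48 h and 5.39 at 6 h, a 9.08-fold rise (log2 change 3.18, SE 0.14, limma adjusted p = 8.64e-09). With 1,25D they were 11.29 at 48 h and 6.43 at 6 h, a 29.1-fold rise (log2 change 4.86, SE 0.13, adjusted p = 4.09e-11), which ranked 8 from the top of all genes. The order of its 4 group levels was vehicle 6 h, 1,25D 6 h, vehicle 48 h and 1,25D 48 h, and no array of a group reached into the next.

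Il18 rose with time in both arms. Its means were 9.04 ± 0.113 in vehicle 48 h and 6.34 ± 0.273 in vehicle 6 h cultures (SD, n = 3 each), a 6.53-fold rise (log2 change 2.71, SE 0.15, limma adjusted p = 9.38e-08). With 1,25D they were 9.37 ± 0.132 (SD, n = 4) at 48 h and 6.33 ± 0.126 (SD, n = 3) at 6 h, an 8.24-fold rise (log2 change 3.04, SE 0.14, adjusted p = 9.67e-09). In the order of group levels, 1,25D 6 h and vehicle 6 h overlapped at the low end, and vehicle 48 h and 1,25D 48 h at the high end were not told apart by the test.

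**Figure D2:**
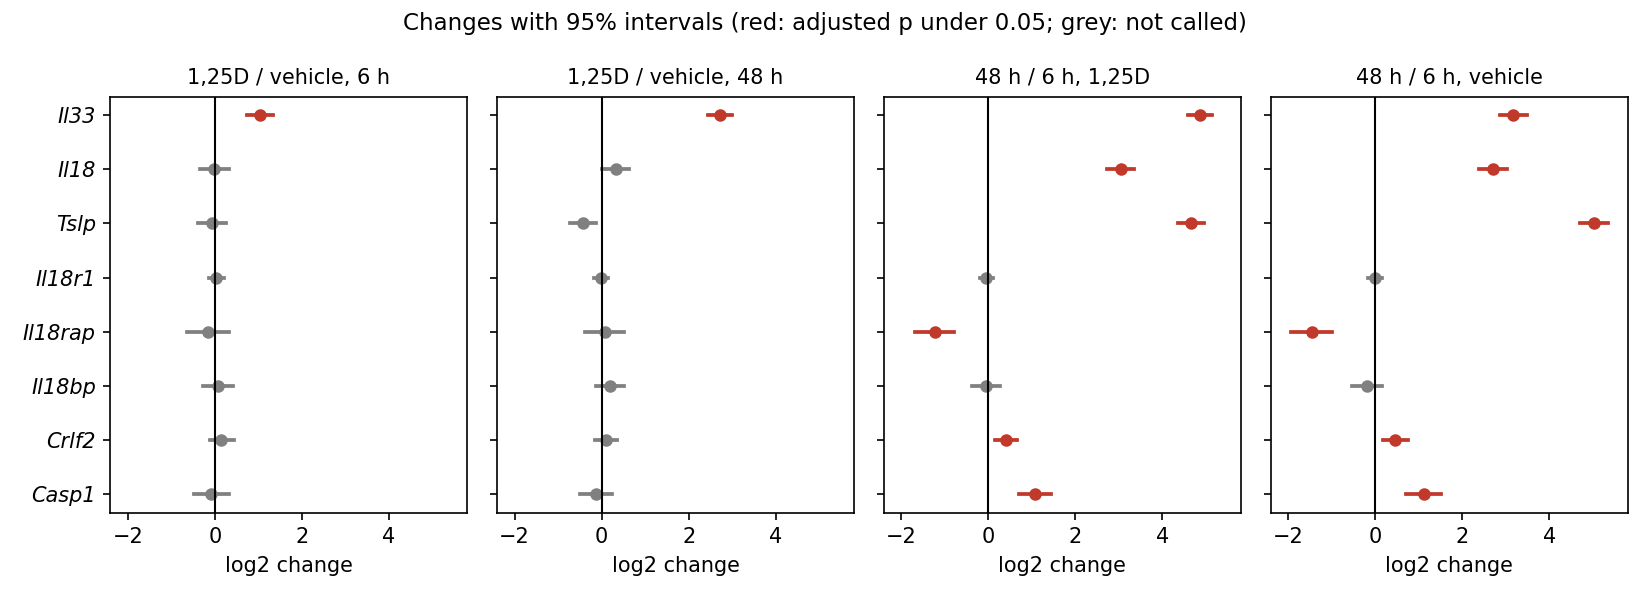
Log2 change (horizontal axis) of each measured member with its 95% interval; the panels from left to right are 1,25D against vehicle at the early and the late time, then 48 h against 6 h with 1,25D and with vehicle; red marks an adjusted p under 0.05. Only Il33 is red in the hormone panels, and 6 of 8 members are red in each time panel.

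Casp1, which cuts the precursor of interleukin-18, rose with time and showed no called response to the hormone. It read 6.59, 7.22 and 6.63 in vehicle 48 h cultures, against 5.57, 5.79 and 5.73 in vehicle 6 h cultures. The 48 h arrays were all higher, with 1 of them, replicate 2, above the rest, and the rise was 2.17-fold (log2 change 1.12, SE 0.19, limma adjusted p = 0.00099). With 1,25D it read 6.78, 6.82, 6.75 and 6.42 at 48 h, against 5.39, 5.74 and 5.72 at 6 h (2.11-fold, log2 change 1.08, SE 0.17, adjusted p = 0.000549). Between 1,25D and vehicle the log2 change was -0.08 (95% interval -0.48 to 0.32) at 6 h and -0.12 (95% interval -0.49 to 0.25) at 48 h, and the arrays overlapped at both times.

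Among receptors, Il18rap, the accessory chain of the interleukin-18 receptor, was the only member that fell with time. Its main probe set, 1456545_at, read 6.99, 6.58 and 6.99 in vehicle 48 h cultures, against 8.14, 8.51 and 8.27 in vehicle 6 h cultures. With 1,25D it read 7.19, 7.27, 6.93 and 6.31 at 48 h, against 8.05, 8.18 and 8.24 at 6 h. All 48 h arrays lay below all 6 h arrays, by 2.74-fold in vehicle (log2 change -1.45, SE 0.22, limma adjusted p = 0.000526) and 2.35-fold with 1,25D (log2 change -1.23, SE 0.21, adjusted p = 0.000812). The lowest value was that of 1,25D 48 h replicate 4, an array that stands apart; without both such arrays the changes were -1.54 in vehicle and -1.03 with 1,25D, still called. A second probe set of Il18rap fell too, with log2 changes of -1.50 (SE 0.23) in vehicle and -1.15 (SE 0.22) with 1,25D. Neither probe set was called for the hormone: at 6 h the main one changed by -0.15 (95% interval -0.63 to 0.33) and at 48 h by 0.07 (95% interval -0.38 to 0.52).

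Il18r1, the ligand-binding chain, was dim in all groups. It lies beside Il18rap in GRCm38.p6, at chr1:40465552-40500854 against chr1:40515362-40551707. Its 13 signals lay between 3.59 and 3.86, its group means at the 5.8 to 6.9 percentile of probe sets, and no comparison called it. Whether the gene was expressed at all is therefore not known from these signals. Il18bp, which binds and blocks interleukin-18, lay between 5.25 and 5.92 with overlapping groups in every comparison, and its log2 changes with 1,25D, none of them called, were 0.07 (95% interval -0.28 to 0.42) at 6 h and 0.19 (95% interval -0.13 to 0.52) at 48 h.

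Crlf2, the specific chain of the TSLP receptor, rose slightly with time. It read 7.98, 8.13 and 8.34 in vehicle 48 h cultures, against 7.66, 7.56 and 7.82 in vehicle 6 h cultures. With 1,25D it read 8.18, 8.33, 8.26 and 8.22 at 48 h, against 7.75, 7.87 and 7.88 at 6 h. The groups did not overlap in either arm, and the rises were 1.39-fold in vehicle (log2 change 0.47, SE 0.13, limma adjusted p = 0.0277) and 1.33-fold with 1,25D (log2 change 0.41, SE 0.12, adjusted p = 0.03). The first call was lost when replicate 2 or 3 of vehicle 48 h, or replicate 1 or 2 of vehicle 6 h, was left out, and also in a fit of those groups alone (adjusted p up to 0.143). The other was lost when replicate 1, 2 or 3 of 1,25D 48 h, or any of the 1,25D 6 h arrays, was left out, and also with the replicate number as a block (adjusted p up to 0.124). Between 1,25D and vehicle the log2 change of Crlf2 was 0.15 (95% interval -0.12 to 0.43) at 6 h and 0.10 (95% interval -0.16 to 0.36) at 48 h, without a call.

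**Figure D3:**
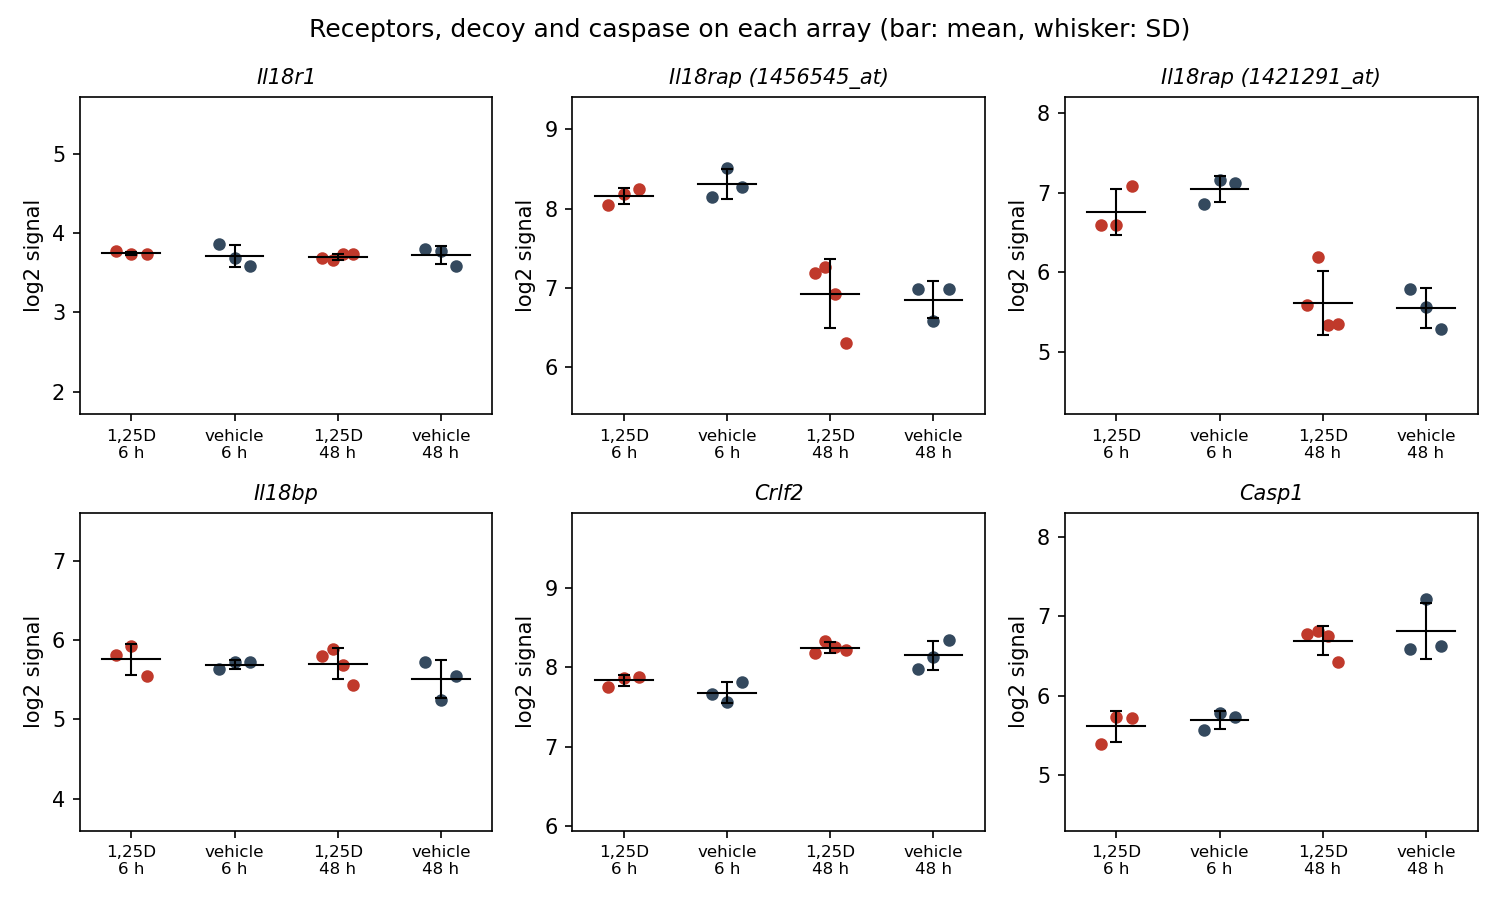
Log2 signal (vertical axes, all spanning the same range) of Il18r1, both probe sets of Il18rap, Il18bp, Crlf2 and Casp1 on each array in the groups 1,25D 6 h, vehicle 6 h, 1,25D 48 h and vehicle 48 h; points are arrays, bars means and whiskers SD. Both Il18rap probe sets are lower at 48 h than at 6 h, Casp1 and Crlf2 are higher, and Il18r1 stays between 3.59 and 3.86.

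Genes that act with the alarmins were read from textbook lists. Beside their counts, 0.852% of all genes were called for 1,25D at 6 h and 2.39% at 48 h. With time 18.6% of all genes were called in vehicle and 23.4% with 1,25D. Of the 14 measured genes that carry signals from the interleukin-33 and interleukin-18 receptors, none was called by limma at 6 h (2 had an unadjusted p under 0.05, and the median log2 change was -0.02), and at 48 h 1 fell. That gene was Myd88, the adaptor of these receptors (log2 change -0.65, SE 0.13, limma adjusted p = 0.0182), whose call was lost when replicate 2 or 3 of vehicle 48 h was left out, in a fit of the 2 groups alone or with the replicate block (adjusted p up to 0.129). With time in vehicle 2 rose, Sigirr, a receptor that damps this pathway (0.72, SE 0.12, adjusted p = 0.000797), and Myd88 (0.59, SE 0.13, adjusted p = 0.0097, and 0.0535 without vehicle 48 h replicate 2). With time under 1,25D 1 of 14 rose, Sigirr (0.39, SE 0.11, adjusted p = 0.0231), and 1 fell, Map3k7, a kinase downstream of the receptors (-0.43, SE 0.11, adjusted p = 0.0198). Both calls were lost with the replicate block (adjusted p = 0.0829 and 0.0566) and when replicate 2 or 3 of 1,25D 6 h or replicate 3 of 1,25D 48 h was left out. That of Sigirr was also lost without replicate 2 of 1,25D 48 h and in a fit of those groups alone (adjusted p up to 0.0866 for Sigirr and 0.0871 for Map3k7).

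The inflammasome and pyroptosis list, which holds the machinery around caspase-1, had 0 of 18 measured members called by limma for 1,25D, with 1 at an unadjusted p under 0.05 at 6 h and 0 at 48 h. Its median log2 change was -0.10 at 6 h and 0.00 at 48 h. With time 2 of 18 rose in vehicle, beside 9.84% of all genes. With 1,25D 2 rose and 1 fell, beside 10.9% of all genes higher and 12.5% lower. The gene that fell was Gsdme, a pore-forming gasdermin (-1.15), whose call was lost with the replicate block and without replicate 1 of 1,25D 48 h or replicate 3 of 1,25D 6 h (adjusted p up to 0.119). Txnip, a thioredoxin-binding protein that can engage Nlrp3, rose by 2.99 in vehicle (SE 0.14, limma adjusted p = 1.54e-08) and by 3.10 with 1,25D (SE 0.13, adjusted p = 3.13e-09). Nlrp10, a member of the NLR family, rose by 1.78 (SE 0.26, adjusted p = 0.000357) and by 1.84 (SE 0.24, adjusted p = 0.00011). The list of proteases and oxidases known to process or release interleukin-33 and interleukin-18 had 0 of 9 members called by limma in all 5 comparisons, with 1 or 2 at an unadjusted p under 0.05 in each.

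In the TSLP receptor list, 1 of 10 measured genes fell at 6 h, Stat3, a transcription factor that several cytokine receptors switch on (log2 change -0.94, SE 0.15, limma adjusted p = 0.00855); its call was lost when replicate 2 of vehicle 6 h was left out or in a fit of the 2 groups alone (adjusted p up to 0.124). None was called by limma at 48 h, where 2 had an unadjusted p under 0.05. With time 3 of 10 rose in each arm, beside 9.84% of all genes in vehicle and 10.9% with 1,25D. They were Cish (1.57, SE 0.15, in vehicle and 1.18, SE 0.14, with 1,25D), Stat3 (0.64 and 1.16) and Socs3 (0.77 and 1.20). Cish and Socs3 encode feedback inhibitors of cytokine signalling. In vehicle the call of Stat3 was lost when replicate 1 of either time was left out (adjusted p up to 0.0521), and that of Socs3 when replicate 1 or 3 of the 48 h arrays or replicate 1 of the 6 h arrays was left out, or in a fit of those groups alone (adjusted p up to 0.103).

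Other epithelial danger signals were measured for 9 of 12 listed genes, the interleukin-36 genes under their older symbols. At 6 h 1 of 9 rose, Il1a, an alarmin of the interleukin-1 family (log2 change 2.78, SE 0.12, limma adjusted p = 6.78e-08). At 48 h 3 rose and 1 fell: Il1a (2.28, SE 0.11), S100a8 (0.88, SE 0.11, adjusted p = 0.000562) and S100a9 (0.92, SE 0.21, adjusted p = 0.0446) were higher, and Anxa1, an annexin that restrains inflammation, was lower (-0.25, SE 0.04, adjusted p = 0.00649). S100a8 and S100a9 encode the chains of calprotectin. Anxa1 was not called without an intensity trend (adjusted p = 0.186). The call of S100a9 was lost when any 1 of 8 arrays was left out (among 48 h arrays, replicates 1, 3 and 4 of 1,25D and replicates 1 and 2 of vehicle; among 6 h arrays, replicate 1 of 1,25D and replicates 2 and 3 of vehicle), after median centring or in a fit of the 2 groups alone (adjusted p up to 0.277). For the difference of the responses at 48 h and 6 h, 1 of 9 was called, S100a8 (higher), beside 0.632% of all genes. That call was lost in 16 of 23 alternatives (limma adjusted p up to 0.152). With time 6 rose and 1 fell in each arm. Of all genes, 9.84% were higher and 8.75% lower in vehicle, and 10.9% and 12.5% with 1,25D. Among the listed genes that rose were S100a9 (2.53 in vehicle and 3.26 with 1,25D) and the interleukin-36 gene Il1f9 (1.60 and 2.05). The gene that fell was Calr, the chaperone calreticulin (-0.50 in vehicle and -0.40 with 1,25D). In vehicle its call was lost without replicate 1 of the 48 h arrays, without replicate 2 or 3 of the 6 h arrays and in a fit of those groups alone (adjusted p up to 0.112). With 1,25D it was lost when any 1 of the 7 arrays was left out, after median centring, without an intensity trend and with the replicate block (adjusted p up to 0.147). Il1f8, another interleukin-36 gene, was among those that rose with 1,25D (0.67), and its call was lost without replicate 1, 2 or 3 of the 48 h arrays, without any 1 of the 6 h arrays, after quantile normalization or median centring and in a fit of those groups alone (adjusted p up to 0.126).

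Markers of the cultured cells and of other cell types were measured beside these results, and their part in the results was not tested. For 1,25D, 0.852% of all genes were called at 6 h and 2.39% at 48 h (1.43% higher and 0.951% lower). With time the shares were 18.6% in vehicle (9.84% higher and 8.75% lower) and 23.4% with 1,25D (10.9% higher and 12.5% lower). Of 7 epithelial markers, 2 fell with 1,25D at 48 h, where Il33 rose: Krt8 (-0.43, SE 0.05, limma adjusted p = 0.000158) and Krt18 (-0.34, SE 0.04, adjusted p = 0.000503), the luminal keratins. With time 3 rose in vehicle, Krt18, Trp63 and Epcam, and with 1,25D Trp63 rose and Krt8 fell. The call of Epcam was lost without replicate 3 of vehicle 48 h (adjusted p = 0.0536). The log2 of the summed epithelial signals ran from 15.72 to 15.75 in 1,25D 6 h, 15.74 to 15.87 in vehicle 6 h, 15.71 to 15.76 in 1,25D 48 h and 15.88 to 15.96 in vehicle 48 h cultures. Of 8 leukocyte markers, 1 was called for 1,25D at 48 h and the same 1 with time in both arms: Cd68, a lysosomal protein abundant in macrophages, averaged 7.92 ± 0.233 (SD, n = 4) in 1,25D 48 h and 6.69 ± 0.00755 (SD, n = 3) in vehicle 48 h cultures. Ptprc, Itgam and Adgre1 were not called in these comparisons. For the difference of the responses at 48 h and 6 h, Cd68 was called higher and the epithelial marker Krt18 lower. The share of all genes called there was 0.632%. These calls were lost in 7 and 14 of 23 alternatives (limma adjusted p up to 0.0895 and 0.433). The log2 of the summed leukocyte signals ran from 8.66 to 8.84 in 1,25D 6 h, 8.70 to 9.09 in vehicle 6 h, 9.21 to 9.51 in 1,25D 48 h and 8.92 to 9.01 in vehicle 48 h cultures. Cd68 differed most, with means of 7.92 in 1,25D 48 h and 5.55 in 1,25D 6 h cultures. In these groups the means were 4.13 and 3.99 for Ptprc, 4.07 and 3.91 for Itgam, and 4.66 and 4.61 for Adgre1. They were 6.88 and 6.81 for Cd3e, 6.36 and 6.30 for Cd4, 6.73 and 6.66 for Csf1r, and 5.25 and 5.41 for Lyz2. Of 5 mast cell markers, 0 were called for 1,25D by limma at either time (0 had an unadjusted p under 0.05 at 6 h and 1 at 48 h), and 1 rose with time, the receptor gene Kit, by 3.59 (SE 0.28) in vehicle and 2.85 (SE 0.26) with 1,25D. The log2 of the summed signals of this list was 7.0 to 7.24 in 1,25D 6 h, 7.14 to 7.35 in vehicle 6 h, 8.04 to 8.81 in 1,25D 48 h and 8.96 to 9.18 in vehicle 48 h cultures. This sum followed Kit, whose mean was 8.70 in vehicle 48 h and 5.11 in vehicle 6 h cultures. In the same groups the means were 4.20 and 4.14 for Cpa3, 4.13 and 4.04 for Fcer1a, 5.10 and 5.04 for Mcpt4, and 5.59 and 5.64 for Tpsb2. Group means lay at the 13.9 to 20.4 percentile for Cpa3 and Fcer1a, 38.5 to 40.3 for Mcpt4, 45.5 to 50.8 for Tpsb2 and 37.0 to 83.1 for Kit. Of 8 stromal markers, 0 were called for 1,25D by limma (0 had an unadjusted p under 0.05 at 6 h and 1 at 48 h), and 1 fell with time under 1,25D, the intermediate filament gene Vim (-0.82, SE 0.13, adjusted p = 0.000421). Vim lay at the 94.3 to 97.1 percentile and the other stromal markers at the 11.7 to 66.5 percentile. The log2 of the summed stromal signals ran from 11.31 to 11.56 in 1,25D 6 h, 11.26 to 11.82 in vehicle 6 h, 10.65 to 10.90 in 1,25D 48 h and 11.07 to 11.31 in vehicle 48 h cultures. Most of this sum was Vim, with means of 10.46 in 1,25D 48 h and 11.01 in vehicle 48 h cultures. The highest group mean among the other stromal markers was 6.86, for Acta2 in vehicle 48 h cultures. Of 5 endothelial markers, 0 were called by limma in the 5 comparisons, and 0 had an unadjusted p under 0.05.

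Genes whose profile over the 13 arrays was closest to that of Il33 were found by the root mean square difference after each gene was centred on its own mean. The closest was Sprr2h (0.32 on the log2 scale), a small proline-rich gene whose close relatives may share its probes. Its log2 changes with 1,25D were 1.46 at 6 h and 2.49 at 48 h, against 1.03 and 2.72 for Il33. Next came Mgp, the gene for matrix Gla protein (0.48), the keratin gene Krt6b (0.50), Sprr1a (0.57) and the collagenase gene Mmp13 (0.68). Krt6b and Sprr1a changed by 0.20 and 0.09 at 6 h and by 1.63 and 1.70 at 48 h. This likeness is a description of 13 arrays in which time and treatment are shared by all genes.

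**Figure D4:**
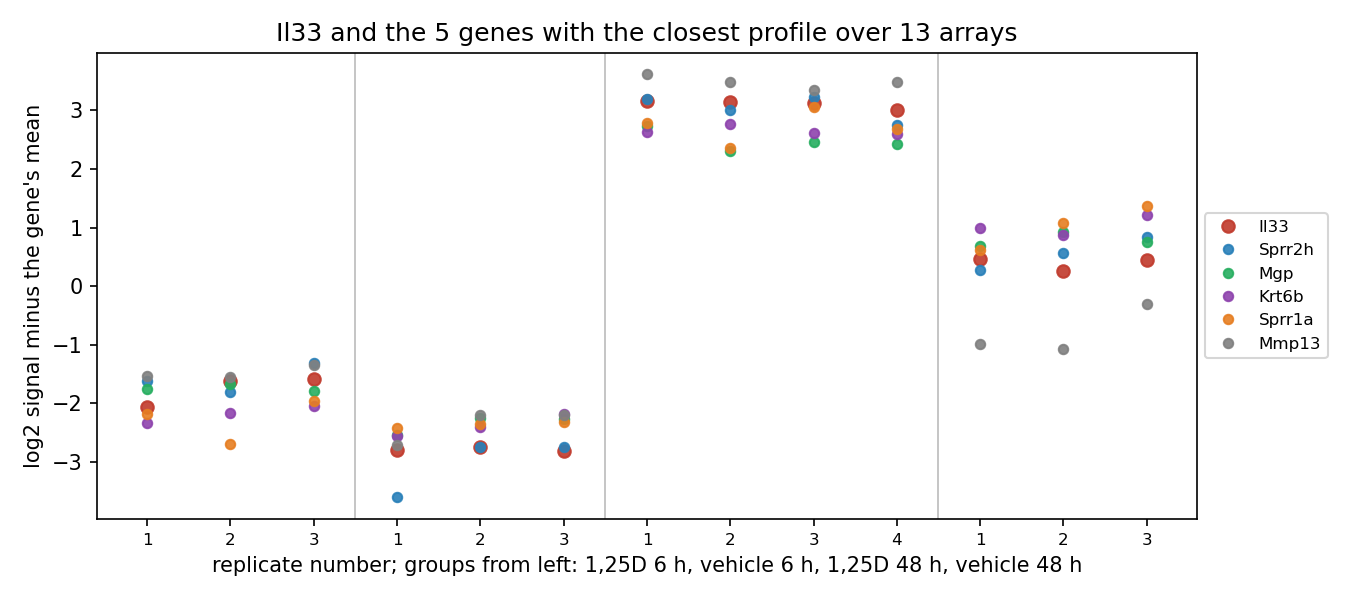
Log2 signal minus the gene's mean over 13 arrays (vertical axis) for Il33 and the 5 genes with the smallest root mean square difference from it; each column is 1 array, numbered by replicate within its group. All 6 genes are highest in 1,25D 48 h cultures, and Mmp13 is lower than Il33 in vehicle 48 h cultures.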

How the data were processed

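Each of 13 RNA samples (5 ug of total RNA, made into biotin-labelled cRNA) was read on 1 Affymetrix mouse array. The authors' deposited values are log2 signals between 3.05 and 14.45; the submitters' processing notes name MAS5 without version or role, and background correction and normalization are not given in the sources used here. The number of arrays limits the precision. Groups and replicate numbers came from sample titles. Of 45101 probe sets, 64 controls were left out; 34945 of the other 45037 named 1 gene, 932 several and 9160 none, by the platform annotation.

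Group means over all arrays were fitted in limma 3.58.1 (R 4.3.3; lmFit, eBayes with an intensity trend, two-sided), for 1,25D against vehicle at each time, the difference of these responses, and 48 h against 6 h in each arm. The log2 values were used as deposited with no offset. Benjamini-Hochberg adjustment ran over the 45037 probe sets together, and a call is an adjusted p under 0.05. Rose and fell are used of calls. The procedure was tested on simulated data. Figures were drawn with matplotlib 3.10.9 (Python 3.11.15).

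The members and the gene lists were chosen with earlier results of these data known, so their calls are not independent evidence. Named genes were the 9 members, Cyp24a1, up to 4 called genes with the smallest p of each list, and the 5 genes closest to Il33; markers and single genes outside this rule were named after their values were seen. Alternatives were quantile normalization, median centring, an offset of 16, leaving out the dimmest 40% of probe sets, no or robust trend, fits of only the groups compared, array quality weights, a replicate block, the mean of a gene's probe sets, dropping both arrays that stand apart, and dropping each array in turn.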

Additional observations from a re-analysis of the deposited data

Results flagged for a closer look

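On the scale of the deposited signals, the change of Il33 with 1,25D differed between the times by a test of the difference itself, 1.68 in log2, with a log2 change of 2.72 at 48 h and 1.03 at 6 h. The difference ran from 1.53 to 1.85 over 23 alternatives, with an adjusted p of at most 0.00469. None of these corrects for background, which would make the 6 h change too small and the difference too large.

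In 1,25D 48 h cultures the Casp1 signal of replicate 4, at 6.42, was far from the other 3 arrays, which lay between 6.75 and 6.82. Its gap to the nearest was 0.836 of the group's range, past the critical value of Dixon's 95% test for 4 samples. Chance gives about 1 such gap in 20 groups, and 9 probe sets were looked at in this group. The same array stands apart on the second principal component; without both arrays that do, Casp1 changed with 1,25D at 48 h by -0.03 (adjusted p = 0.982), against -0.12 with all arrays.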

How the results depend on the processing

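Over 40 results of the members (8 genes in 5 comparisons) 947 values were recomputed, of which 933 kept their side of the threshold, 13 lost and 1 gained a call, and 0 reversed a called change. At 6 h the number of members called was 0 when only the 2 groups were fitted, because Il33 (1.03) was lost there, and at 48 h it was 2 with array quality weights, where Tslp (-0.41) was gained. Leaving out each array gave 1 member at 6 h, at 48 h and for the difference, and 5 to 6 with time in either arm; the losses there were Crlf2 alone. The labels do not say that replicate numbers pair samples. Same-numbered arrays had correlations of deviations of 0.28, 0.22 and 0.07 at 6 h, where 5 of 6 arrays matched their own number best. At 48 h the correlations were -0.01, -0.53 and 0.39, and 1 of 6 did. The 6 matches at a time rest on the same correlations and are not independent, so they cannot settle whether arrays were paired. With the replicate block, 1 member was called at 6 h, 1 at 48 h, 1 for the difference, 6 with time in vehicle and 5 with time under 1,25D. In the same order, that block called 156, 373, 103, 3415 and 3819 of all 18193 genes.

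Of 55 calls among list genes, markers and Cyp24a1, 37 held under every alternative and 0 were reversed. Counts over all genes moved more: 155 at 6 h ran from 68 (only the groups compared) to 248 (without the 2 arrays that stand apart), 434 at 48 h from 260 (without vehicle 48 h replicate 2) to 1043 (array quality weights), and 115 for the difference from 66 (without 1,25D 6 h replicate 1) to 262 (array quality weights). With time, the 3382 genes called in vehicle ran from 2366 to 4347, and the 4265 called with 1,25D from 3323 to 6146. No detection calls were used, so signals near background, as for Il18r1, have no known lower limit.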

Other observations

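The genes closest to Tslp and Il18 over the 13 arrays were also listed, though neither was called for 1,25D; they were chosen after these values were seen. For Tslp they were Sftpd, the gene for surfactant protein D (root mean square difference 0.24 on the log2 scale), Egln3, an oxygen-sensing hydroxylase (0.38), Ifit1bl1 (0.47), Cyp2f2 (0.53) and Lrg1 (0.59). Between 48 h and 6 h in vehicle, Sftpd changed by 4.92 and Egln3 by 4.43, beside 5.02 for Tslp. For Il18 they were Txnip (0.23), Tspan1 (0.23), Ly6d (0.29), the beta-defensin gene Defb3 (0.29) and Mndal (0.30). In vehicle, Txnip changed by 2.99 and Tspan1 by 2.98 between 48 h and 6 h, beside 2.71 for Il18.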
